A study of Bos taurus with 4 samples.

Results

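A set of 10 genes of cumulus and granulosa cell function, out of 14002 genes with a symbol in the deposited table, was followed through 4 RNA sequencing libraries of early bovine (Bos taurus) embryos. They were chosen by name, as genes of cumulus expansion and of steroid synthesis, to ask how much RNA typical of the somatic cells around the oocyte each embryo library holds. All 10 had a row, and each had 1 RefSeq accession. The embryos had 8 to 16 cells and were collected on day 3 after insemination. Zygotes had been injected with negative control siRNAs (NC, n = 2 libraries) or with siRNAs for a knockdown of KDM5A, KDM5B and KDM5C, whose products demethylate lysine 4 of histone H3 (KDM5_KD, likewise n = 2). No other strain, allele or agent is named, and every embryo, controls included, had been injected with siRNA. For the second knockdown library the title names Kdm5 while the treatment entry names KDM6 siRNAs, so it was grouped by title. For those of the 10 genes that were tested, the log2 difference is also given without this library. The number of embryos per library, and whether replicates came from separate cultures, is not given in the sources used here, so p-values measure only the spread between these libraries, which may be technical.

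Cumulus cells enclose the oocyte and, after the ovulatory signal, lay down a hyaluronan-rich matrix, a process called cumulus expansion. Granulosa cells line the follicle and, under follicle-stimulating hormone, turn androgens into estrogens, while cholesterol is made into pregnenolone inside their mitochondria. These programs are textbook features of the somatic follicle, and fertilized embryos may carry such cells where cumulus cells stay attached to the zona pellucida.

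Values are FPKM, fragments per kilobase of transcript, scaled to the mapped fragments of the library, which allow levels of different genes to be compared. The libraries summed to between 283300 and 322300 FPKM, and between 8427 and 9160 transcripts reached 1 FPKM. Absolute depth is unknown, but the steps between low values put NC replicate 1, KDM5_KD replicate 1 and KDM5_KD replicate 2 at 0.683, 0.803 and 0.782 times the depth of NC replicate 2. The siRNA target KDM5A measured 28.4 and 27.1 FPKM in the controls and 10.5 and 10.1 FPKM after knockdown, and KDM5C 28.1 and 40.6 FPKM against 15.1 and 17.8 FPKM. The groups did not overlap for either target, where 15.6% of all transcripts tested lay lower without overlap. In the test described below, the limma adjusted p was 0.0333 for KDM5A and 0.123 for KDM5C. KDM5B was not analysed here, since no row mapped to its symbol, so its knockdown was not checked. The labelled tissue was checked on 10 transcripts of 9 oocyte and embryo marker genes, among them BMP15, GDF9 and DPPA3. These were above 6 FPKM in every library, with sums of 440 and 328.5 FPKM in NC and 533.5 and 561.3 FPKM in KDM5_KD.

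The 10 genes covered a wide range of levels. FDX1 was the most abundant in all 4 libraries. CYP11A1, STAR and CD44 followed and changed places between libraries, so their order was not settled by these data. HAS2 and then TNFAIP6 came next in every library, ahead of PTGS2 and PTX3. CYP19A1 and FSHR were the lowest, close to or at 0. In FPKM summed over the 10 genes the NC libraries held 47.0 and 35.9 and the KDM5_KD libraries 60.2 and 69.3. FDX1 alone made up between 36.8% and 56.4% of these sums. Without FDX1 and CD44, which many cell types express, the sums were 21.1 and 12.6 FPKM in NC and 27.6 and 35.5 FPKM in KDM5_KD. On either sum both knockdown libraries lay above both controls, and the 2 controls differed from each other. In bulk RNA, fewer cells of a type and less RNA per cell cannot be told apart.

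**Figure D1:**
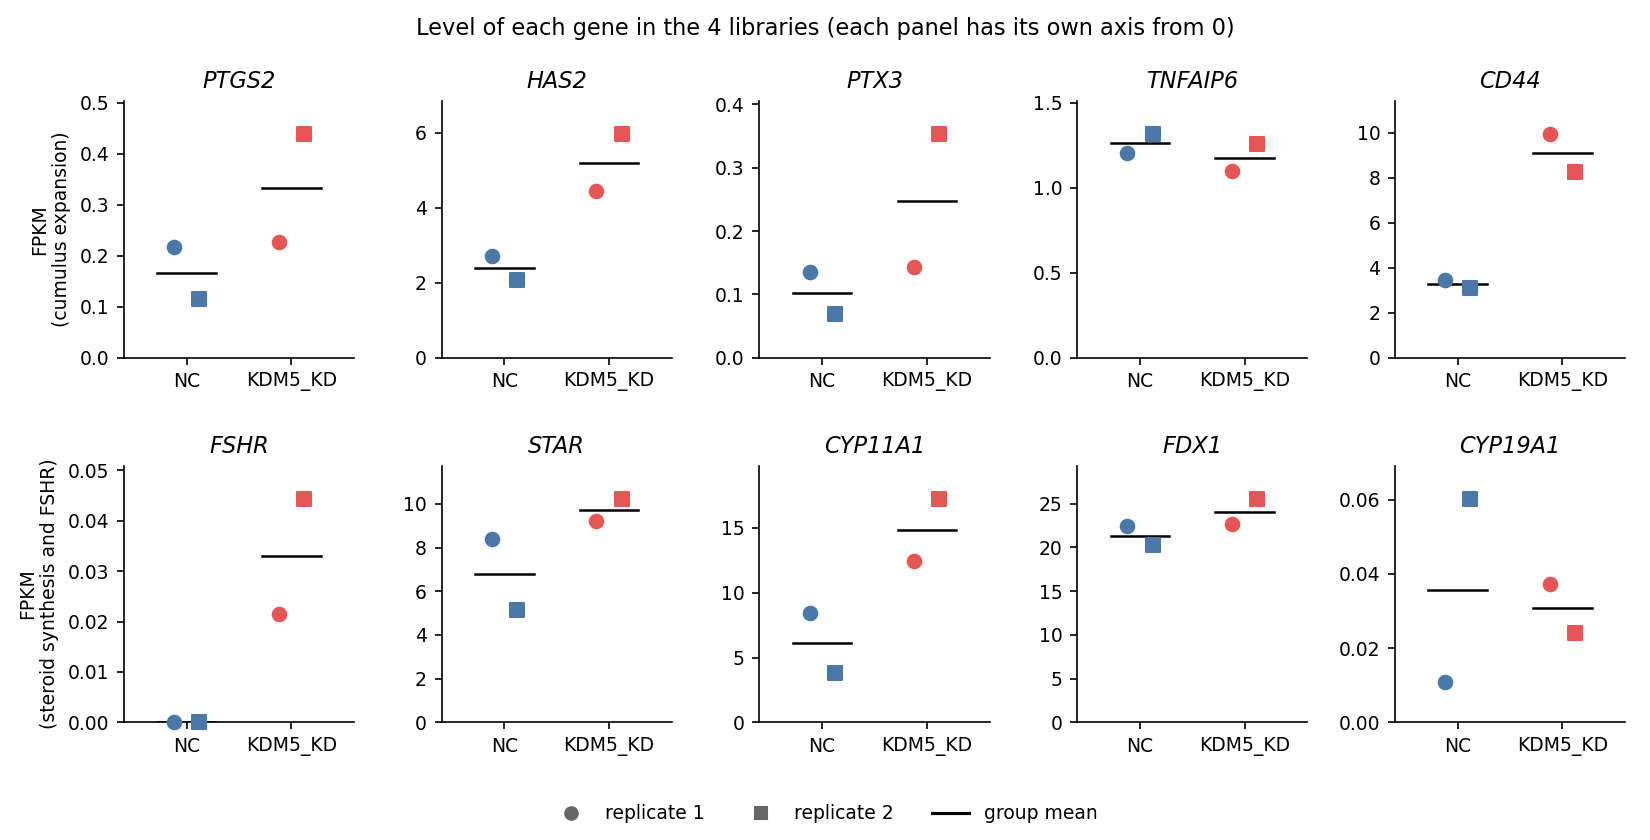
FPKM of each of the 10 genes in the 4 libraries, with blue points for NC, red points for KDM5_KD, circles for replicate 1, squares for replicate 2 and a black bar for the group mean. CD44, HAS2 and CYP11A1 were higher in both knockdown libraries than in both controls, TNFAIP6 and CYP19A1 overlapped between groups, and FSHR was listed at 0 in both controls.

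Differences between groups were tested with limma on log2(FPKM + 1) over the 8970 transcripts with a mean of at least 1 FPKM across libraries. Of the 10 genes, 6 entered this test, and each of these was above 1 FPKM in all 4 libraries. None of the 6 passed a limma adjusted p of 0.05, where 0.279% of all transcripts did (0.19% as higher and 0.0892% as lower). At an unadjusted limma p under 0.05, 3 of the 6 were higher (CD44, HAS2 and CYP11A1), against 14.3% of all transcripts higher at that p and 17.5% in either direction. Log2 differences reached 1 for 2 of the 6 (CD44 and CYP11A1) and -1 for 0, against 4.52% and 0.301% of all transcripts. The difference was above 0 for 5 of the 6, against 62.6%. Knockdown values lay entirely above control values for 5 of the 6, against 35.1% of all transcripts, and the median difference was 0.68 on the log2 scale against 0.09 for all transcripts. After quantile normalization, which shifts the median of all transcripts from 0.09 to -0.05, the count of 5 became 3, because STAR and FDX1 then overlapped. FDX1 also overlapped after median-ratio scaling, which moves the median of all transcripts to -0.03.

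Among the genes of cumulus expansion, PTGS2 encodes the inducible cyclooxygenase that starts prostaglandin synthesis. PTGS2 (NM_174445) measured 0.217 and 0.114 FPKM in the controls and 0.227 and 0.438 FPKM after knockdown. Only KDM5_KD replicate 2 stood clear of the rest, since KDM5_KD replicate 1 was close to NC replicate 1. After scaling for depth, these values stand in the ratio of 13 and 10 fragments in NC to 16 and 30 in KDM5_KD, or a common multiple of these numbers. Its mean was under 1 FPKM, so it was not tested. On median-ratio or quantile scaling its groups overlapped.

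HAS2 makes the hyaluronan backbone of the expanded matrix. HAS2 (NM_174079) measured 2.70 and 2.07 FPKM in the controls and 4.44 and 5.96 FPKM after knockdown. Both knockdown libraries were above both controls, under each of the 3 scalings tried. The means were 2.39 ± 0.444 and 5.20 ± 1.07 FPKM (SD, n = 2 each), and the log2 difference was 0.87 (SE 0.229, limma adjusted p of 0.159). It was 0.69 without KDM5_KD replicate 2.

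PTX3 and TNFAIP6 encode proteins that cross-link hyaluronan, TNFAIP6 by transferring the heavy chains of inter-alpha-trypsin inhibitor onto it. PTX3 (NM_001076259) measured 0.135 and 0.0690 FPKM in the controls and 0.143 and 0.353 FPKM after knockdown. Its depth-scaled values stand in the ratio of 4 and 3 fragments in NC to 5 and 12 in KDM5_KD, or a common multiple, and as for PTGS2 only KDM5_KD replicate 2 stood clear. It was not tested, and its groups overlapped on median-ratio or quantile scaling. TNFAIP6 (NM_001007813) measured 1.21 and 1.31 FPKM in the controls and 1.10 and 1.26 FPKM after knockdown. These groups overlapped, with a log2 difference of -0.05 (95% interval -0.54 to 0.43, limma adjusted p of 0.917). The interval does not show that TNFAIP6 was equal in the groups.

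CD44, the cell-surface receptor for hyaluronan, had the largest log2 difference of the 6 genes tested with FPKM as deposited and all libraries, while CYP11A1 came first after quantile normalization. CD44 (NM_174013) measured 3.44 and 3.11 FPKM in the controls and 9.94 and 8.26 FPKM after knockdown. The controls were close together and both knockdown libraries lay well above them. Its mean was 2.78 times as high in KDM5_KD (9.10 ± 1.18 FPKM) as in NC (3.28 ± 0.232 FPKM; SD, n = 2 each). The log2 difference of 1.24 (SE 0.195) had a limma adjusted p of 0.0950 and was 1.36 without KDM5_KD replicate 2. CD44 is expressed by many cell types, so its level is not particular to cumulus cells.

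Within a library, the ratio of 2 genes is not changed by a scaling with a single factor per library, though quantile normalization does change it. HAS2 was 2.24 and 1.58 times the level of TNFAIP6 in the NC libraries and 4.05 and 4.74 times in the KDM5_KD libraries. Both products act in the same matrix, and this ratio was higher in both knockdown libraries than in both controls. CD44 was 0.153 and 0.154 times the level of FDX1 in NC and 0.438 and 0.324 times in KDM5_KD. The ratio of CD44 to HAS2, also a pair of this matrix, overlapped between groups. It was 1.274 and 1.501 in NC and 2.236 and 1.386 in KDM5_KD. How often the ratio of 2 genes separates the groups across all transcripts was not tested.

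The steroid branch begins at FSHR, the receptor for follicle-stimulating hormone that marks granulosa cells. FSHR (NM_174061) was listed at 0 in both NC libraries and at 0.0216 and 0.0443 FPKM in KDM5_KD. After scaling for depth, the KDM5_KD values stand in the ratio of 1 fragment to 2. No fold is given against a group listed at 0, and the gene was not tested.

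STAR carries cholesterol into mitochondria. STAR (NM_174189) measured 8.40 and 5.15 FPKM in the controls and 9.22 and 10.2 FPKM after knockdown. NC replicate 1 was nearer to the knockdown libraries than to NC replicate 2. The log2 difference was 0.49 (SE 0.246, 95% interval -0.11 to 1.10, limma adjusted p of 0.366). With only NC replicate 1 as control it was 0.19, and with only NC replicate 2 it was 0.80.

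CYP11A1, the side-chain cleavage enzyme, converts that cholesterol to pregnenolone. CYP11A1 (NM_176644) measured 8.41 and 3.79 FPKM in the controls and 12.5 and 17.2 FPKM after knockdown. All 4 libraries were spread apart, with both knockdown libraries above both controls under each of the 3 scalings. The means were 6.10 ± 3.26 and 14.8 ± 3.38 FPKM (SD, n = 2 each), and the log2 difference was 1.22 (SE 0.347, limma adjusted p of 0.176). The difference was 1.71 without NC replicate 1 and 0.74 without NC replicate 2. Without KDM5_KD replicate 2 the difference was 1.002. The size of the difference therefore rests on which control library is used. For the other genes tested, leaving out KDM5_KD replicate 2 gave 0.43 for STAR, 0.08 for FDX1 and -0.11 for TNFAIP6.

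FDX1, the ferredoxin that passes electrons to CYP11A1, is found in mitochondria of many cell types. FDX1 (NM_181011) measured 22.4 and 20.2 FPKM in the controls and 22.7 and 25.5 FPKM after knockdown. KDM5_KD replicate 1 was close to NC replicate 1. The log2 difference was 0.17 (95% interval -0.19 to 0.52, limma adjusted p of 0.606). CYP11A1 thus stood at 0.375 and 0.187 times the level of FDX1 in NC and at 0.550 and 0.675 times in KDM5_KD. Relative to STAR it was at 1.001 and 0.737 in NC and at 1.35 and 1.69 in KDM5_KD. Both ratios were above every control value in both knockdown libraries.

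CYP19A1, the aromatase that makes estrogens, is a defining gene of follicular granulosa cells. CYP19A1 (NM_174305) measured 0.0110 and 0.0601 FPKM in the controls and 0.0374 and 0.0241 FPKM after knockdown. The groups overlapped, and NC replicate 2 was highest. The depth-scaled values stand in the ratio of 2 and 16 fragments in NC to 8 and 5 in KDM5_KD, or a common multiple. Cattle carry an aromatase pseudogene, between which and CYP19A1 reads may be divided, so this row is uncertain. Its whole fragment numbers are uncertain for the same reason and could be smaller. The steroid synthesis genes were thus unevenly present: STAR, CYP11A1 and FDX1 were above 3 FPKM in all 4 libraries, while FSHR and CYP19A1 were under 0.1 FPKM in all 4.

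**Figure D2:**
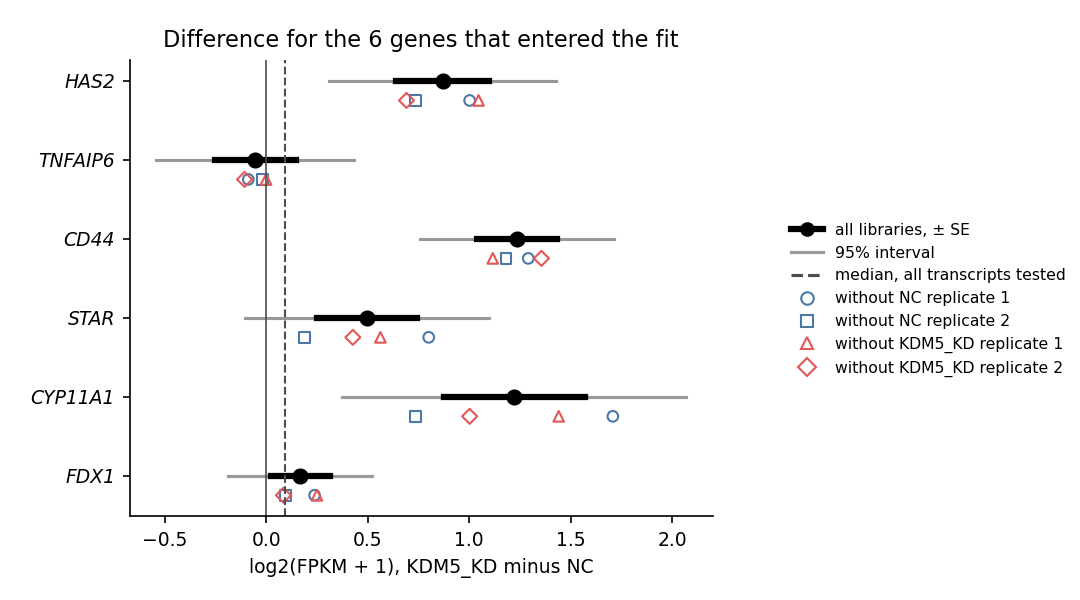
Difference in log2(FPKM + 1), KDM5_KD minus NC, for the 6 genes that entered the test, as a black point with its SE (thick bar) and 95% interval (grey line). Open symbols give the difference when a library is left out, and the dashed line is the median of all transcripts tested (0.09). For CYP11A1 the open symbols run from 0.74 to 1.71, and for CD44 from 1.12 to 1.36.

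The libraries ranked in a similar way over these genes. NC replicate 2 was the lowest of the 4 libraries for 5 of the 6 genes tested, against 37.5% of all transcripts. KDM5_KD replicate 2 was the highest for 4 of the 6, against 35.9% of all transcripts. Between the controls, replicate 1 exceeded replicate 2 for 5 of the 6, against 55.8% of all transcripts, with TNFAIP6 as the exception. Between the knockdown libraries, replicate 2 exceeded replicate 1 for 5 of the 6, against 55.6% of all transcripts, with CD44 as the exception. NC replicate 2 was also the deepest library.

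Other genes of cumulus expansion were taken from a list of 26, of which 21 had a row and 11 were tested. None passed a limma adjusted p of 0.05, and 4 had an unadjusted limma p under 0.05, all higher, against 14.3% of all transcripts. Knockdown values lay above control values for 5 of the 11 and below for 0, against 35.1% and 15.6% of all transcripts. The median log2 difference of 0.40 became 0.06 without a filter and 0.12 after quantile normalization. VCAN, a matrix proteoglycan that binds hyaluronan, measured 0.811 and 0.524 FPKM in the controls and 3.93 and 2.71 FPKM after knockdown (log2 difference 1.36, limma adjusted p of 0.106). GREM1, a BMP antagonist of cumulus cells, measured 0.661 and 0.483 FPKM in the controls and 3.66 and 2.30 FPKM after knockdown (log2 difference 1.32, limma adjusted p of 0.107). Both passed the filter of 1 FPKM only through the knockdown group, and so did PTGES, a prostaglandin E synthase. All of these are among the 5 that lay above, and VCAN and GREM1 are among the 4. Such rows had to differ, which favours higher values in counts over a list. The transcription factor gene RUNX1 differed by 0.88 (limma adjusted p of 0.253). ADAMTS1, a protease that cleaves versican, and PTGER4, a prostaglandin E2 receptor, were the most abundant of this list. ADAMTS1 measured 19.7 and 15.0 FPKM in the controls and 41.1 and 22.7 FPKM after knockdown, while PTGER4 overlapped between groups (log2 difference 0.05).

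Of 24 other steroid synthesis genes, 22 had a row and 17 were tested. None passed a limma adjusted p of 0.05, and 7 had an unadjusted limma p under 0.05, all higher, against 14.3% of all transcripts. Knockdown values lay above control values for 12 of the 17 and below for 1, against 35.1% and 15.6%. The median log2 difference of 0.45 became 0.12 with a filter at 5 FPKM. HSD17B7 and LIPE passed the filter only through the knockdown group. Both are among the 12 that lay above, and HSD17B7 is also among the 7. GATA4, a transcription factor of the gonads and of other tissues, measured 4.02 and 1.55 FPKM in the controls and 9.25 and 7.39 FPKM after knockdown (limma adjusted p of 0.153). TSPO, a protein of the outer mitochondrial membrane, measured 10.9 and 5.94 FPKM in the controls and 23.8 and 19.4 FPKM after knockdown (limma adjusted p of 0.126). SRD5A1, a steroid reductase, was the gene below, with a log2 difference of -0.30 (limma adjusted p of 0.434). SOAT1, which esterifies cholesterol, and CYB5A were the most abundant of this list, with log2 differences of -0.27 and 0.54. CYP17A1, the enzyme of androgen synthesis in theca cells, was listed at 0 in all 4 libraries.

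Hormone feedback and granulosa identity genes made up a further list of 18, with 18 rows for 17 genes and 14 rows tested. None passed a limma adjusted p of 0.05, and 9 had an unadjusted limma p under 0.05, all higher, against 14.3% of all transcripts. Knockdown values lay above control values for 10 of the 14 and below for 0, against 35.1% and 15.6%, and the median log2 difference was 0.77. INHA, GATM and ESR2 passed the filter only through the knockdown group. INHA and GATM are among the 9 and also among the 10 that lay above. PRKAR2B, a regulatory subunit of protein kinase A, measured 2.70 and 1.82 FPKM in the controls and 8.05 and 7.56 FPKM after knockdown (log2 difference 1.45, limma adjusted p of 0.0909). The inhibin subunit genes INHBB and INHA differed by 1.35 and 1.24 (limma adjusted p of 0.106 and 0.124). INHA measured 1.195 and 0.489 FPKM in the controls and 3.67 and 2.91 FPKM after knockdown. The most abundant were GNAS, a G protein subunit whose row NM_181021 differed by 1.05, and KITLG, the ligand of the KIT receptor, which differed by 0.18 with groups that overlapped. The other GNAS row, NM_001271771, differed by -0.20, and reads may be divided between the rows. AMH, a hormone made by granulosa cells and chosen here after its values were seen, measured 2.77 and 1.12 FPKM in the controls and 1.28 and 0.957 FPKM after knockdown, so its groups overlapped.

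With NC replicate 1 left out, the log2 differences were 1.86 for GATA4, 1.70 for TSPO and 1.52 for INHA. They were 1.59 for INHBB, 1.64 for PRKAR2B and 1.47 for GNAS (NM_181021). With NC replicate 2 left out, GATA4, TSPO and INHA differed by 0.89, 0.92 and 0.96. INHBB, PRKAR2B and this GNAS row then differed by 1.11, 1.25 and 0.63. The median of all transcripts tested was 0.092 without NC replicate 1 and 0.099 without NC replicate 2. As for CYP11A1, the size of these differences depended on which control library was kept.

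**Figure D3:**
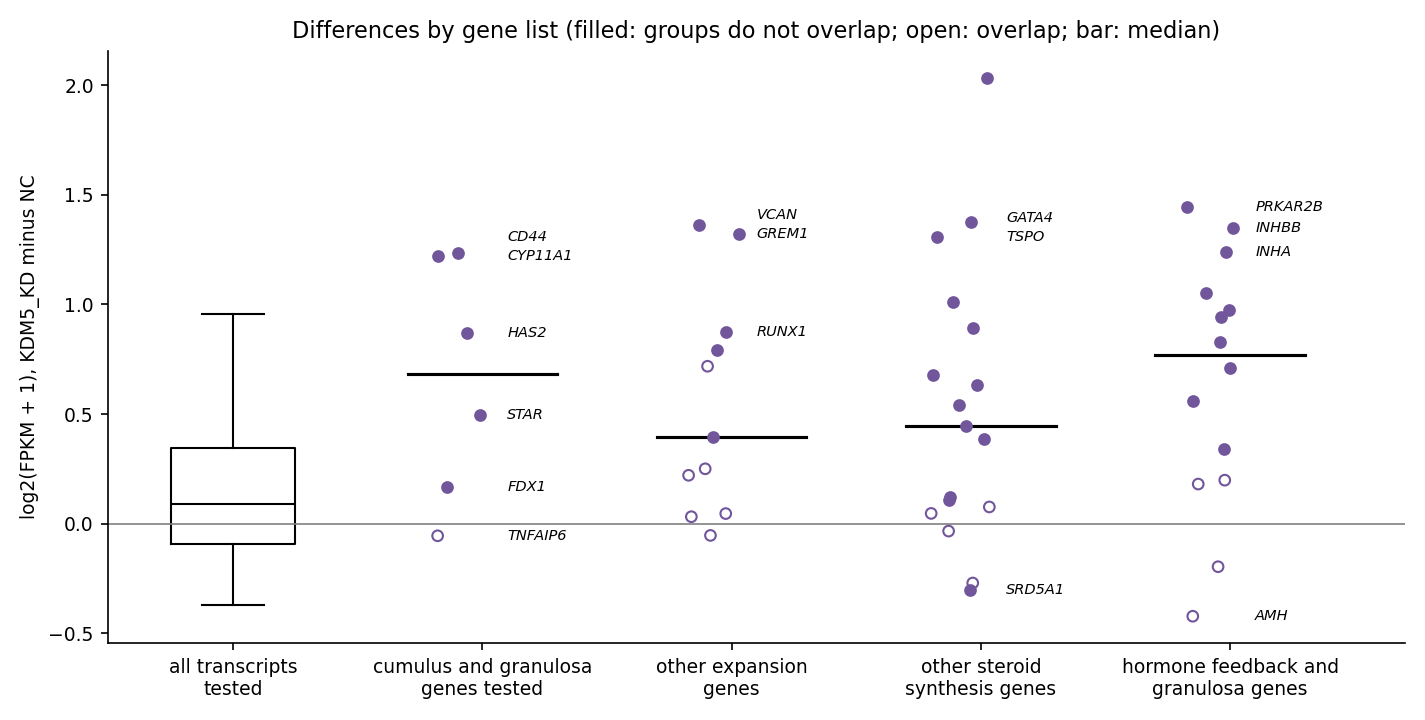
Difference in log2(FPKM + 1), KDM5_KD minus NC, for each row tested in the 4 gene lists, with filled points where the groups do not overlap, open points where they do, and a bar at the list median. The box gives the quartiles of all 8970 transcripts tested, with whiskers from the 5th to the 95th percentile. List medians were 0.68, 0.40, 0.45 and 0.77 from left to right, against 0.09 for all transcripts.

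Markers of cell types that could accompany an embryo were read in each library. The 8 granulosa and cumulus markers, all of which are also in the lists above, summed to 37.2 and 37.7 FPKM in NC and to 51.1 and 44.2 FPKM in KDM5_KD. KITLG held between 72.8% and 88.7% of these sums. The other 7 summed to 8.86 and 4.25 FPKM in NC and to 13.9 and 11.1 FPKM in KDM5_KD, an order of groups like that of the 10 genes. LHCGR, the luteinizing hormone receptor, was listed at 0 in 3 libraries and at 0.0434 FPKM in KDM5_KD replicate 2. FSHR, LHCGR and the uncertain row of CYP19A1 were at or near 0 in every library, while STAR and CYP11A1 were not. Among the 8 markers, INHBA lay between 1.38 and 5.1 FPKM, INHA between 0.489 and 3.67 FPKM and AMH between 0.957 and 2.77 FPKM. NR5A1 lay between 0.599 and 2.45 FPKM, FOXL2 between 0.491 and 1.25 FPKM and AMHR2 between 0.132 and 0.308 FPKM. Whether any of these levels came from somatic cells was not tested.

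Stroma markers, led by COL1A1, summed to 57.5 and 49.5 FPKM in NC and to 104.6 and 79.3 FPKM in KDM5_KD. Endothelial markers, led by KDR, summed to 4.59 and 4.16 FPKM in the controls and to 6.79 and 6.38 FPKM after knockdown. In that list PECAM1 and CDH5 were under 0.1 FPKM in all 4 libraries, while TEK lay between 1.65 and 2.62 FPKM and VWF between 0.198 and 1.51 FPKM. Red blood cell markers, almost all HBA, summed to 31.6 and 5.30 FPKM in the controls and to 38.3 and 33.1 FPKM after knockdown. Theca markers were almost all NR2F2, between 98.4% and 99.7% of the sum, with CYP17A1 at 0. Leukocyte markers summed to 3.04 and 3.15 FPKM in NC and to 1.83 and 2.42 FPKM in KDM5_KD. CD68 held between 77% and 89% of these sums, and TYROBP was at 0 in all 4 libraries. Oviduct markers, led by EPCAM, summed to between 27.9 and 31.6 FPKM. Sperm markers, led by TNP1, summed to between 0.843 and 1.603 FPKM. The sums of the stroma, oocyte, granulosa, endothelial and red blood cell lists thus had both knockdown libraries above both controls, as the 10 genes did. The leukocyte sum, mostly CD68, had the opposite order. The part of each of these lists in the differences of the 10 genes was not tested.

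**Figure D4:**
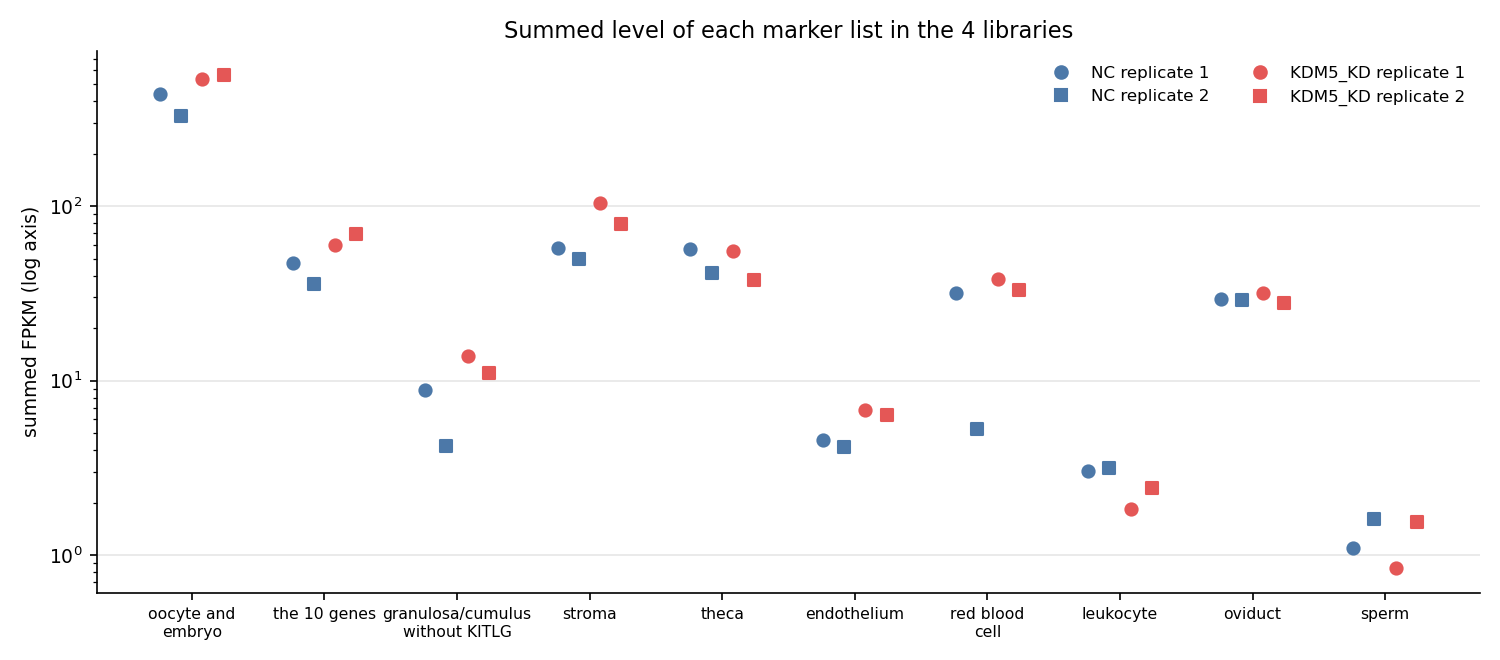
FPKM summed over each marker list in the 4 libraries, on a log axis, with blue for NC, red for KDM5_KD, circles for replicate 1 and squares for replicate 2. The 10 genes lay between 35.9 and 69.3 FPKM, below the oocyte and embryo markers (328.5 to 561.3 FPKM) and above the granulosa and cumulus markers without KITLG (4.25 to 13.9 FPKM).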

How the data were processed

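Libraries of polyadenylated RNA were made with oligo(dT) beads and PCR amplification, per the labels' protocols. The authors deposited FPKM for 14517 RefSeq accessions in 4 library columns, and 0 columns of values were unused. Trimmomatic, HISAT2, featureCounts and Cufflinks are named in the submitters' processing notes. The genome build, the annotation and strand use are not given in the sources used here, so no positions are given. A RefSeq gene table (ARS-UCD2.0) gave symbols for 14295 accessions.

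Fits used limma 3.58.1 in R 4.3.3 (lmFit, eBayes with a trend) on log2(FPKM + 1), a scale that understates changes of low genes. All 4 libraries entered without covariates, transcripts with a mean under 1 FPKM were left out, and p-values were adjusted over all 8970 transcripts (Benjamini-Hochberg). The fit was also run on simulated data with normal noise, in which only transcripts well above the filter were changed. That run does not vouch for genes near 1 FPKM. Relative depth came from ratios of values between 0.001 and 0.3 FPKM: between 44.3% and 48.7% lay within 0.5% of ratios of whole numbers up to 4, against 3.12% to 3.31% for evenly spread ratios. Whole fragment numbers are the smallest set, with a multiplier of up to 10, that lay within 0.05 of the depth-scaled values, and were sought for untested genes only. Precision rests on 2 libraries per group.

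The 10 genes and the lists were chosen with earlier results of these data known. From each pathway list the text names genes with an adjusted p under 0.05, the 3 largest differences in each direction without overlap, and the 2 most abundant. From each marker list it names the most abundant gene and those at 0 throughout, except for genes that are not reported here. Some genes fall outside this rule and were chosen after their values were seen. They are AMH, AMHR2, FOXL2, INHBA, LHCGR, NR5A1, PECAM1, CDH5, TEK, VWF and HBB, and the genes named only for how they passed the filter. The fit was repeated with no filter, with a filter at 5 FPKM, with 0.1 as pseudocount, with 3 scalings (median ratio, quantile, common sum without microRNA rows), with eBayes untrended or robust, with the replicate block, with rows summed by symbol and without each library. Plots used matplotlib 3.10.9 and tables pandas 2.3.3 with numpy 2.4.6, in Python 3.11.15.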

Additional observations from a re-analysis of the deposited data

How the results depend on the processing

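For the 6 genes tested, the direction was kept under every alternative run, and CYP11A1 without NC replicate 1 was the only one past the threshold, so the count of called genes ranged from 0 to 1 with a library left out. A lone library in a group was assumed to vary like the others. Over the alternatives the limma adjusted p of CD44 ranged from 0.0570 to 0.321, of HAS2 from 0.137 to 0.616, of CYP11A1 from 0.0314 to 0.611 and of STAR from 0.142 to 0.834. The median over these genes, 0.68, became 0.18 without a filter, when all 10 genes enter, and ranged from 0.46 to 0.90 with a library left out. A pseudocount of 0.1 raised the untested differences of PTGS2, PTX3 and FSHR to 0.69, 0.74 and 0.41. HAS2 and TNFAIP6 could not be fitted at a filter of 5 FPKM, which removes them.

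Among the other steroid synthesis genes the median was 0.30 without a filter, 0.12 with a filter at 5 FPKM, 0.31 with median-ratio scaling, 0.27 after quantile normalization, and ranged from 0.28 to 0.66 with a library left out. The other expansion genes had a median of 0.06 without a filter, 0.22 with a filter at 5 FPKM, 0.75 with a pseudocount of 0.1, and 0.32 to 0.63 with a library left out. The hormone feedback median was 1.03 with a pseudocount of 0.1 and 0.56 without a filter. Summed levels without FDX1 and CD44 were 21.1, 12.6, 27.6 and 35.5 FPKM (NC replicates 1 and 2, then KDM5_KD).

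Across all transcripts 17 were called higher and 8 lower. No filter gave 2 and 1, the filter at 5 FPKM 11 higher, eBayes without a trend 6 higher and robust eBayes 37 higher. With a library left out, 3 to 323 were called higher and 3 to 17 lower, the highest of each without NC replicate 1. Replicate numbers are shared between groups but the labels do not say that a number marks a batch. Deviations of libraries with the same number correlated at 0.229 across transcripts. With that number as the replicate block, 8 transcripts were called higher and 4 lower, and none of the 10 genes passed. The cause of these changes was not tested. Fragment numbers limit PTX3, CYP19A1 and FSHR most.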

Other observations

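The alpha-globin gene HBA (NM_001077422), the most abundant of the red blood cell markers, measured 31.5 and 5.09 FPKM in the controls and 38.3 and 33.1 FPKM after knockdown. Its partner HBB was at 0.140 and 0.190 FPKM in NC and listed at 0 in KDM5_KD. NC replicate 2, the lowest library for 5 of the 6 cumulus and granulosa genes tested, was also the lowest for HBA. The limma adjusted p for HBA between groups was 0.381. Alpha-globin genes have near-identical copies, so this row is uncertain.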
